A study of Homo sapiens with 12 samples.

Results

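Keratin genes were followed through FAK knockdown in pancreatic ductal adenocarcinoma (PDAC) cells. Members were all genes of the deposited array table whose name is KRT followed by digits and at most 1 letter, with the keratin associated KRTAP genes left out. This rule took 56 of 34599 gene names, with 67 of 47228 probes. Of these genes, 29 encode type I keratins, 26 encode type II keratins and 1, KRT126P, is a keratin pseudogene whose name ends in a letter. All 56 were found in the RefSeq gene table, 28 on chromosome 12 and 28 on chromosome 17.

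Keratins build the intermediate filaments of epithelial cells, and each filament pairs an acidic type I chain with a basic type II chain. Simple epithelia such as the pancreatic duct carry mainly KRT8 and KRT18, joined in ducts by KRT7 and KRT19. Stratified epithelia use KRT5 and KRT14 in the basal layer and KRT1 and KRT10 above it, and KRT4 and KRT13 in mucosa. The hair shaft has its own chains, among them KRT81 and KRT86, and in tumor pathology keratin patterns serve to assign a carcinoma to a tissue.

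RNA was measured on Illumina bead arrays in 2 human PDAC cell lines. MIA PaCa-2 was derived from a poorly differentiated primary tumor, and Capan-1 from a liver metastasis of a well differentiated one. Each line carried 1 of 3 inducible hairpins in a tet-on lentiviral backbone. These were a scrambled control, shCtrl, and a pair directed against FAK (focal adhesion kinase, encoded by PTK2), called sh1209 and sh1319. The label shFAK1319 in Capan-1 was taken as sh1319. The protocol for all groups was 50 ng/ml doxycycline for 96 hours. Medium held puromycin at 3.5 ug/ml (MIA PaCa-2) or 1.5 ug/ml (Capan-1), so that the 6 groups differ in cell line and hairpin, and the lines also differ in puromycin. Stable lines were selected with puromycin, and the sources used here do not say whether they were clones or pools. There were 12 arrays on 1 chip, 2 for each group. Neither the labels nor the paper says whether the pair came from separate cultures, so p-values measure only the spread between these arrays, which may be technical.

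Values are normalized log2 intensities (quantile normalization after background correction with an offset of 16, which understates the change of dim probes), given as mean ± SD with n = 2, and changes are differences of log2 means. A probe was detected where its detection p was under 0.05, and detection on 2 or more arrays put 24207 probes into the limma test, in which a Benjamini-Hochberg adjusted p under 0.05 counted as passing. Median intensities of the arrays lay between 87.7 and 97.0, and 16259 to 19814 probes were detected per array. PTK2 probe 450253 was lower with both hairpins in both lines, by 2.24 (sh1209) and 2.48 (sh1319) on the log2 scale in MIA PaCa-2 and, in the same order, by 0.61 and 1.78 in the Capan-1 cells (limma adjusted p between 5.2e-08 and 0.0036), whereas PTK2 probe 2680750 did not pass in any of the 4. On probe 450253 the mean fall with both hairpins was 1.17 smaller in Capan-1 (limma adjusted p = 0.00021). There sh1209 stood 1.16 above sh1319 (limma adjusted p = 6.2e-05). On probe 2680750 the difference between the lines did not pass (limma adjusted p = 0.15). Depth of knockdown thus cannot be told apart from cell line or, in Capan-1, from hairpin. With shCtrl, 10 of 11 epithelial genes other than keratins on the array were detected in both arrays in Capan-1 and 1 of 11 in MIA PaCa-2. Of 8 mesenchymal genes, 3 were detected in both arrays in Capan-1 and 1 in MIA PaCa-2. Of these 8, the filament gene VIM (probe 830593) was at 13.21 ± 0.10 (SD, n = 2) with MIA PaCa-2 shCtrl, against 5.66 ± 0.08 (SD, n = 2) with Capan-1 shCtrl. In total RNA from a culture, fewer cells of a type and less RNA per cell cannot be told apart.

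Most keratin genes were not detected on this array. Of the 67 probes, 37 were detected in no array and 7 in a single array, while 23 probes of 19 genes were tested. Among the 31 genes without detection on any array were KRT5 and KRT14, the basal pair, KRT1 and KRT2 of the epidermis, and KRT4, the mucosal partner of KRT13. The group of activated or hyperproliferative keratins (KRT6A, KRT6B, KRT6C and KRT16) had no tested probe among 7, and 15 of 19 probes for hair and nail keratins were detected nowhere. Keratin probes detected in both arrays numbered 10, 10 and 9 (shCtrl, sh1209, sh1319) in MIA PaCa-2, against 12, 12 and 15 in Capan-1. Probes detected in all 12 arrays numbered 6, from KRT8, KRT10, KRT18 and KRT80, and 9 of the tested probes were detected in 2 to 4 arrays only.

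**Figure D1:**
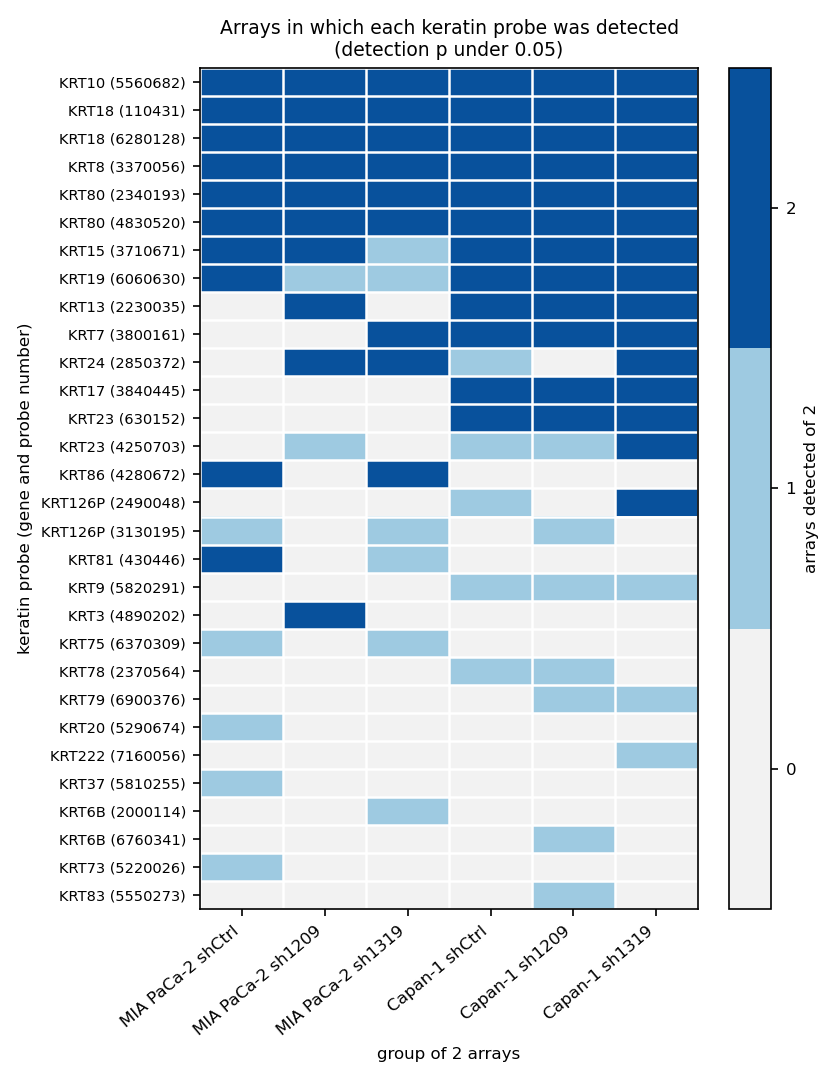
Each row is a keratin probe detected in at least 1 of 12 arrays and each column a group of 2 arrays, with the color giving the number of arrays in which the probe was detected. A block of 6 probes is detected throughout, KRT17 and KRT23 probe 630152 are detected in the Capan-1 groups, and KRT81 and KRT86 in some MIA PaCa-2 groups.

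With shCtrl, the ductal keratins separated the lines. KRT19, a type I keratin of duct cells, read 6.05 and 6.02 on the MIA PaCa-2 arrays and 12.61 on both Capan-1 arrays, a log2 difference of 6.58 ± 0.19 (SE; limma adjusted p = 8.4e-11). KRT7, its usual type II companion in ducts, was below detection on the MIA PaCa-2 shCtrl arrays and stood at 9.74 ± 0.03 (SD, n = 2) in Capan-1, at least 32.8-fold higher (limma adjusted p = 1.1e-11). Such a bound takes the lowest detected signal of each dim array in place of an undetected value. KRT13, KRT17 and KRT23 were also undetected in both MIA PaCa-2 shCtrl arrays, and in Capan-1 they were at least 9.15-fold, 3.06-fold and 4.75-fold higher (limma adjusted p = 4.7e-10, 1.5e-07 and 4.9e-08).

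KRT8 and KRT18, which form the filament of simple epithelia, were present in both lines. In KRT8, MIA PaCa-2 stood at 10.67 ± 0.06 (SD, n = 2), against 10.92 ± 0.15 (SD, n = 2) for Capan-1, a log2 difference of 0.25 with a 95% interval from -0.09 to 0.58 (limma adjusted p = 0.24). Probes of KRT18 disagreed: 110431 did not pass (0.21 ± 0.19, limma adjusted p = 0.43), whereas the dimmer 6280128 was lower in Capan-1 by 0.73 on the log2 scale (limma adjusted p = 0.00056), a call lost with median scaling of the arrays (adjusted p = 0.064). Lower in Capan-1 were the hair keratins KRT81 and KRT86, undetected there with every hairpin, by at least 8.68-fold and 6.15-fold (limma adjusted p = 4e-10 and 1.6e-09).

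Of the 23 keratin probes, 13 differed between the lines with shCtrl (56.5%, against 42.1% of all probes tested), 9 of them higher and 4 lower in Capan-1. With median scaling the split was 8 higher and 2 lower. The remaining calls were KRT80 (both probes) and KRT10, both higher in Capan-1, KRT75, detected in 1 MIA PaCa-2 and no Capan-1 array with shCtrl and at least 1.11-fold lower in Capan-1 (limma adjusted p = 0.033), and KRT23 probe 4250703, detected in 1 Capan-1 and no MIA PaCa-2 array with shCtrl, for which no bound could be given (limma adjusted p = 0.04). KRT10 (9.19 and 10.50) differed by 1.31 ± 0.12 (SE; limma adjusted p = 3.1e-06). Of the 13, KRT17, KRT23 probe 630152, KRT75, KRT81 and KRT86 passed the detection filter only through arrays of the line where they were higher. That filter favors a difference for them, so the share is not read as an excess. KRT20, the remaining simple keratin and a marker of gastrointestinal epithelium, was detected in 1 array on 1 of its probes and was not tested.

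**Figure D2:**
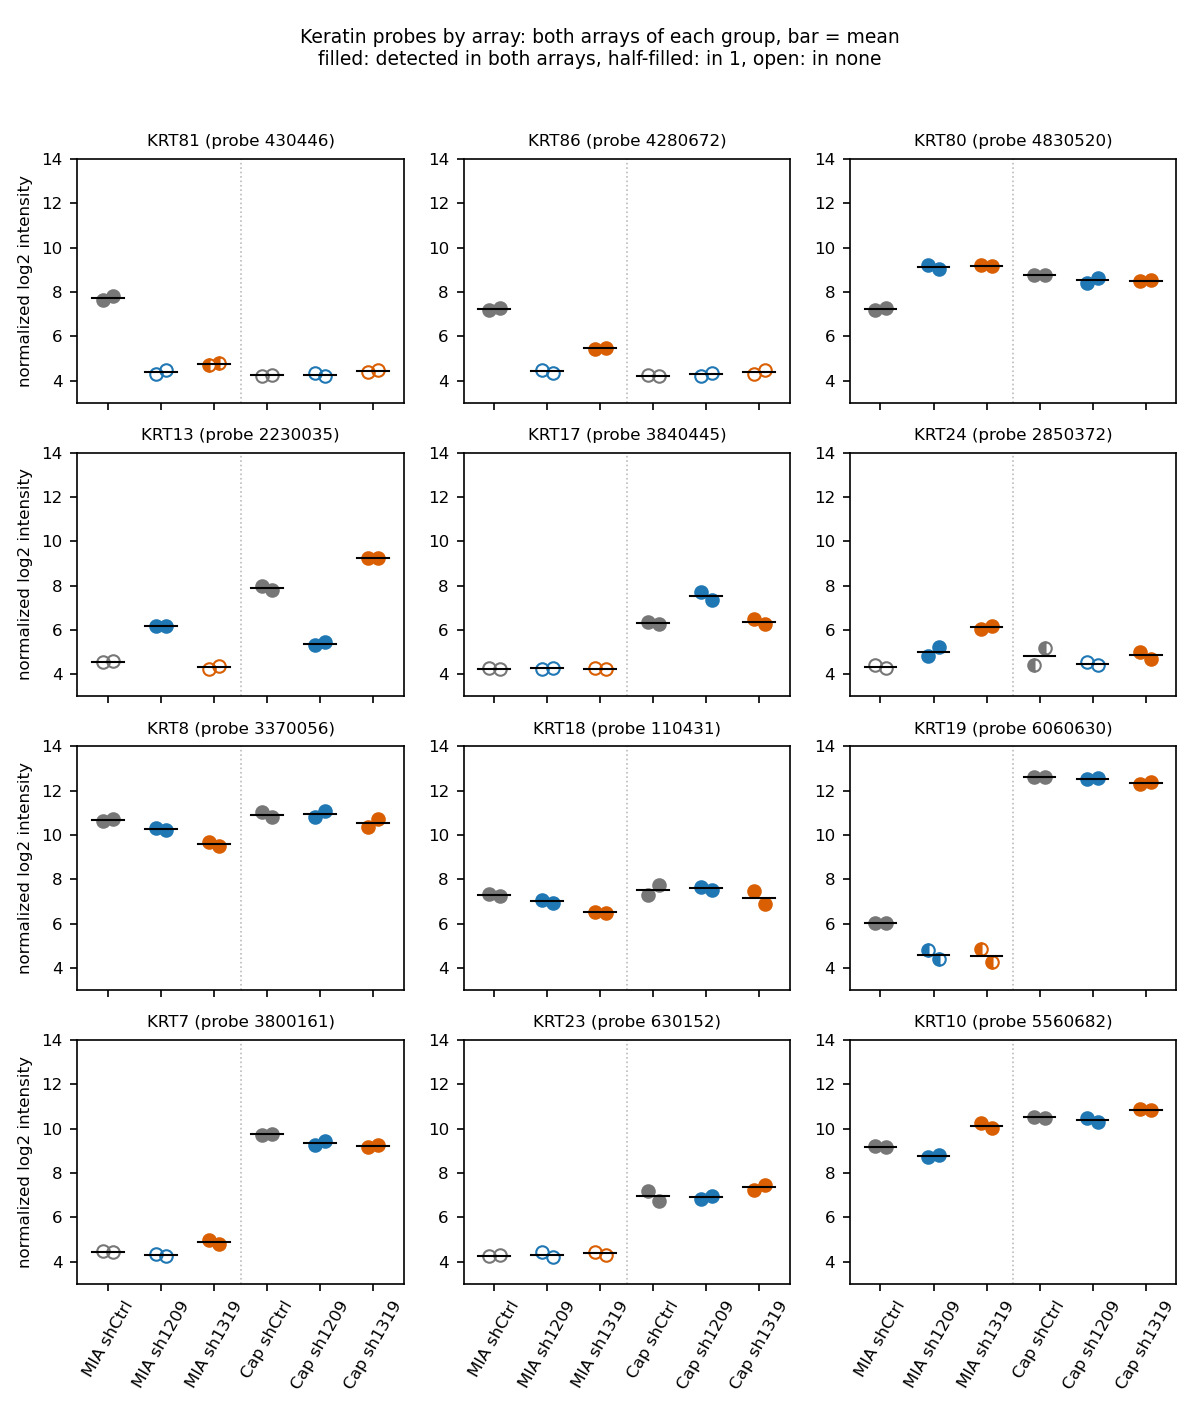
Normalized log2 intensity of 12 keratin probes on each array, with MIA PaCa-2 (MIA) to the left and Capan-1 (Cap) to the right of the dotted line. Points are arrays, bars are group means, and filled, half-filled and open points mark groups in which the probe was detected in 2, 1 and 0 arrays. KRT81 and KRT86 sit between 7.18 and 7.79 with shCtrl in MIA PaCa-2 and between 4.19 and 5.48 elsewhere, KRT80 probe 4830520 is higher with both hairpins in MIA PaCa-2, and KRT13 in Capan-1 is lowest with sh1209 and highest with sh1319.

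In MIA PaCa-2, the hair keratins KRT81 and KRT86 fell most. KRT81, a type II chain of the hair cortex that carcinoma cells can also express, read 7.64 and 7.79 with shCtrl, 4.31 and 4.46 with sh1209, and 4.70 and 4.78 with sh1319. Every knockdown array was thus near the detection floor of 4.65 to 4.74 for this line, and the knockdown arrays did not overlap with shCtrl. KRT81 was at least 8.29-fold lower with sh1209 (limma adjusted p = 9.2e-09) and 7.90-fold lower with sh1319, where 1 of 2 arrays detected it (log2 change -2.98, 95% interval -3.24 to -2.72, limma adjusted p = 1.5e-08). Its probe was detected in 3 arrays, both with shCtrl and 1 with sh1319, so it entered the test only through shCtrl. The detection filter favors a fall for it, and its p-values carry that limit.

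KRT86, the neighboring hair keratin, read 7.18 and 7.27 with shCtrl, 4.50 and 4.34 with sh1209, and 5.44 and 5.48 with sh1319. It was thus undetected with sh1209 (at least 5.88-fold lower, limma adjusted p = 3.5e-08) and still detected on both arrays with sh1319 (3.39-fold lower, limma adjusted p = 9.7e-07). The level with sh1209 was below that with sh1319 by at least 1.73-fold (limma adjusted p = 7e-05). For KRT81 the same difference was -0.35 on the log2 scale with a 95% interval from -0.61 to -0.09 (limma adjusted p = 0.054).

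In Capan-1 neither gene was detected in any group. Changes differed between the lines by 3.27 ± 0.14 for KRT81 and 2.41 ± 0.15 for KRT86 on the log2 scale (SE; mean response to both hairpins in Capan-1 minus that in MIA PaCa-2, limma adjusted p = 1e-07 and 1e-06). Since a probe at the floor cannot show a fall, these values give the fall in MIA PaCa-2 and no test of one in Capan-1. In the RefSeq table KRT81 lies inside the span of KRT86, and the pair are near copies of each other. Whether a probe of one also binds RNA of the other was not tested, as probe sequences were not used here. A further probe, 5720053, carries KRTHB6, an older name of KRT86 that the naming rule does not take, and was looked up after the KRT86 values were seen. It was detected in both MIA PaCa-2 shCtrl arrays and in no other array, so it entered the test only through the arrays where it is high. Its changes in MIA PaCa-2 were -0.81 with sh1209 and -1.01 with sh1319 on the log2 scale. The detection filter favors that direction, so they are not counted as support for the fall of KRT86.

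KRT80, a type II keratin of terminally differentiating epithelia, went the other way. Probe 4830520 read 7.19 and 7.26 with shCtrl in MIA PaCa-2, 9.23 and 9.03 with sh1209, and 9.20 and 9.15 with sh1319, so all knockdown arrays were above both controls. The rise was 3.75-fold with sh1209 (log2 change 1.91, 95% interval 1.64 to 2.18, limma adjusted p = 1e-06) and 3.86-fold with sh1319 (limma adjusted p = 5.6e-07). Its second probe, 2340193, rose 1.96-fold and 2.23-fold (limma adjusted p = 0.0033 and 0.00063). The 2 hairpins gave nearly the same level, with a difference of -0.04 on probe 4830520 and a 95% interval from -0.31 to 0.23.

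In Capan-1, where KRT80 probe 4830520 stood at 8.76 ± 0.01 (SD, n = 2) with shCtrl, the changes were -0.23 and -0.25 on the log2 scale and did not pass (limma adjusted p = 0.25 and 0.24). The responses of the lines differed by -2.17 ± 0.15 (SE; limma adjusted p = 2.9e-06) on this probe. On the dimmer probe they differed by -1.05 ± 0.22 (SE; limma adjusted p = 0.0087), a call lost with median scaling (-0.79, adjusted p = 0.099) and without the first Capan-1 shCtrl array (-0.94, adjusted p = 0.051). With either FAK hairpin, KRT80 probe 4830520 in MIA PaCa-2 thus read 9.13 ± 0.15 and 9.17 ± 0.03 (SD, n = 2), against 8.41 to 8.77 on the Capan-1 arrays, a difference that was not tested. On probe 2340193 the knockdown arrays of MIA PaCa-2 (5.89 to 6.24) overlapped the Capan-1 arrays (5.61 to 6.23).

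KRT19 fell in MIA PaCa-2 from a low starting level. The arrays read 6.05 and 6.02 with shCtrl, 4.81 and 4.38 with sh1209, and 4.85 and 4.26 with sh1319, and 1 of 2 arrays still detected it with each FAK hairpin. The changes were -1.44 ± 0.19 and -1.47 ± 0.19 on the log2 scale (SE; limma adjusted p = 0.00025 and 0.00013). In Capan-1, KRT19 remained between 12.29 and 12.61 on all 6 arrays, with changes of -0.07 and -0.28 that did not pass (limma adjusted p = 0.88 and 0.41), the latter passing without background correction (-0.27, adjusted p = 0.019), and the responses of the lines differed by 1.28 ± 0.23 (SE; limma adjusted p = 0.0031).

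KRT8 was lower with sh1319 in MIA PaCa-2, as was KRT18 on probe 110431 but not on probe 6280128. KRT8 read 10.63 and 10.71 with shCtrl, 10.30 and 10.20 with sh1209, and 9.67 and 9.49 with sh1319, 3 levels that did not overlap. It fell 2.13-fold with sh1319 (log2 change -1.09, 95% interval -1.43 to -0.75, limma adjusted p = 0.0003). With sh1209 the change was -0.42 (limma adjusted p = 0.085), and it passed without background correction (adjusted p = 0.009) or with an offset of 50 (adjusted p = 0.027). The level with sh1319 was below that with sh1209 by 0.67 on the log2 scale (limma adjusted p = 0.0078), a call lost with median scaling (0.54, adjusted p = 0.11) and without the first sh1209 array (adjusted p = 0.055) or the second sh1319 array (adjusted p = 0.063).

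Of its partner KRT18, probe 110431 went from 7.29 ± 0.08 to 6.50 ± 0.06 (SD, n = 2) with sh1319, a change of -0.80 ± 0.19 (SE; limma adjusted p = 0.01). The call was lost when the first shCtrl array or the second sh1319 array was left out (adjusted p = 0.057 in both). Probe 6280128 of KRT18 changed by 0.02 ± 0.13 (SE; limma adjusted p = 0.93), so the probes of this gene disagree. In Capan-1, KRT8 changed by 0.02 with sh1209 and -0.40 with sh1319 (95% interval -0.74 to -0.06, limma adjusted p = 0.12), and without background correction the latter passed (adjusted p = 0.015). The difference in KRT8 response between the lines, 0.57 with a 95% interval from 0.15 to 0.98, did not pass (limma adjusted p = 0.069), but did without background correction (adjusted p = 0.0061), with an offset of 50 (adjusted p = 0.02), with the stricter filter (adjusted p = 0.046) and without the first Capan-1 sh1319 array (adjusted p = 0.037).

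KRT8 and KRT18 have many processed pseudogenes, and 19 array probes carry a name of one. They were looked at after the values of the parents were seen. Of 6 that were tested, MIA PaCa-2 showed 3 lower with sh1209 (8.99% of all tested probes were lower) and 5 lower with sh1319 (12.1% of all), none was higher with either, and none passed with either hairpin in Capan-1. The brightest in MIA PaCa-2, KRT18P13 probe 6110026, went from 11.08 ± 0.13 with shCtrl to 10.52 ± 0.05 with sh1209 and 10.12 ± 0.07 with sh1319 (SD, n = 2; limma adjusted p = 0.0081 and 0.00016). Whether these probes bind RNA of the parent genes was not tested.

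**Figure D3:**
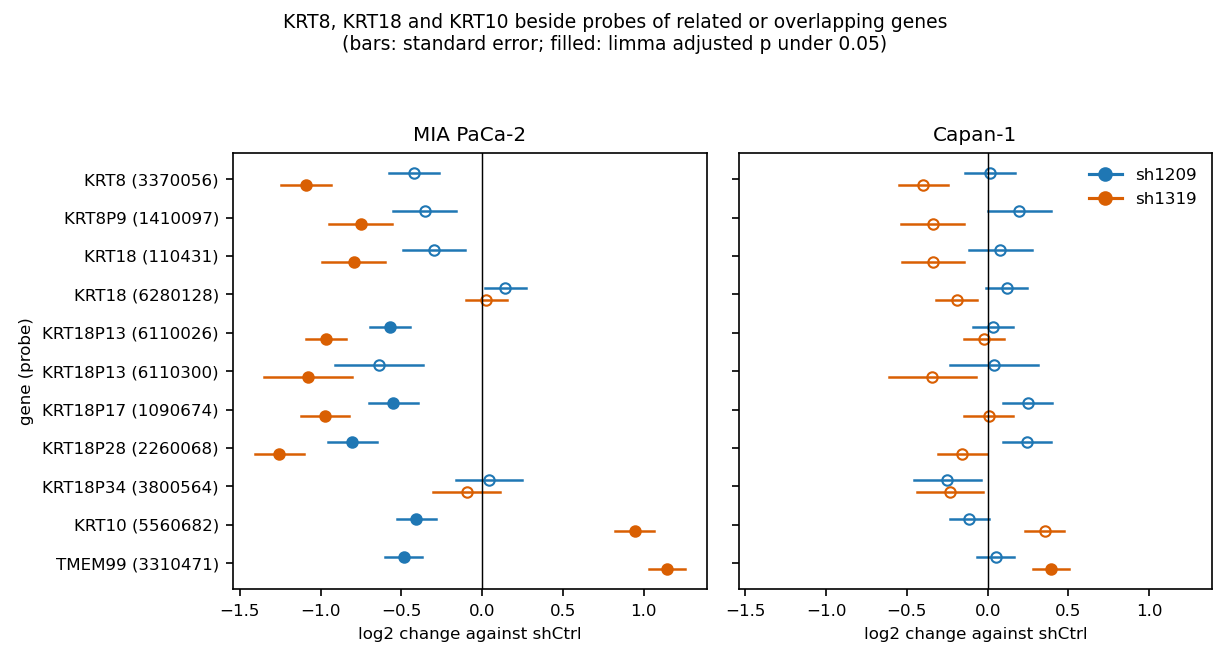
Log2 change against shCtrl with sh1209 (blue) and sh1319 (orange) in each line for KRT8, KRT18 and KRT10 and for probes of their pseudogenes or of TMEM99, with bars of 1 standard error and filled points where the limma adjusted p was under 0.05. In MIA PaCa-2 the KRT8 and KRT18 pseudogene probes apart from KRT18P34 lie to the left, and KRT10 and TMEM99 move left with sh1209 and right with sh1319.

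KRT7 changed by small amounts. In MIA PaCa-2 it was detected with sh1319 alone, at 4.87 ± 0.12 (SD, n = 2), at least 1.12-fold above shCtrl (limma adjusted p = 0.016). In Capan-1 it went from 9.72 and 9.77 with shCtrl to 9.27 and 9.41 with sh1209 and to 9.17 and 9.25 with sh1319, falls of 0.40 and 0.54 on the log2 scale (limma adjusted p = 0.034 and 0.0097). None of these calls held with median scaling (adjusted p = 0.30 in MIA PaCa-2, against 0.63 and 0.37 in Capan-1). That scaling moves the median change of all probes in Capan-1 by 0.14 (sh1209) and 0.15 (sh1319). The sh1209 call in Capan-1 was also lost in a fit of that line alone (adjusted p = 0.052) and when any 1 of its 4 arrays was left out, the sh1319 call there without the second shCtrl or first sh1319 array, and that in MIA PaCa-2 without the second shCtrl or first sh1319 array, without background correction (0.14, adjusted p = 0.16) and with an offset of 50 (0.19, adjusted p = 0.087).

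KRT13, the type I keratin of mucosal epithelia, gave the largest difference between hairpins among the keratins tested. In Capan-1 it read 7.99 and 7.81 with shCtrl, 5.31 and 5.44 with sh1209, and 9.23 and 9.22 with sh1319, groups that did not overlap. It fell 5.78-fold with sh1209 (log2 change -2.53, 95% interval -2.78 to -2.28, limma adjusted p = 6.7e-08) and rose 2.5-fold with sh1319 (log2 change 1.32, 95% interval 1.07 to 1.58, limma adjusted p = 4.1e-05). Levels with the 2 FAK hairpins were thus 14.4-fold apart in Capan-1 (limma adjusted p = 8.4e-09).

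In MIA PaCa-2 the order was turned. KRT13 was undetected with shCtrl (4.54 and 4.60) and with sh1319 (4.26 and 4.38), and detected with sh1209 (6.15 and 6.18), at least 2.75-fold above shCtrl (limma adjusted p = 2.8e-06) and at least 2.76-fold above sh1319 (limma adjusted p = 7e-07). The mean response to both hairpins differed between the lines by -1.28 ± 0.14 (SE; limma adjusted p = 0.00012), a value that averages opposite changes in Capan-1. KRT4, the type II partner of KRT13 in mucosa, was not detected in any array, and KRT3 and KRT76 of the same group passed no test or were not detected.

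KRT17, a type I keratin of basal and wounded epithelia, rose with sh1209 in Capan-1. It read 6.37 and 6.28 with shCtrl, 7.69 and 7.34 with sh1209, and 6.48 and 6.26 with sh1319. The sh1209 arrays were above all others, 2.29-fold over shCtrl (log2 change 1.19, 95% interval 0.89 to 1.49, limma adjusted p = 0.00013), and sh1209 exceeded sh1319 by 1.15 ± 0.14 (SE; limma adjusted p = 0.00026). With sh1319 the change was 0.05 with a 95% interval from -0.25 to 0.35. KRT17 was undetected throughout MIA PaCa-2, and the difference in mean response between the lines, 0.61 ± 0.17 (SE; limma adjusted p = 0.03), lost its call when any 1 of 8 arrays was left out, at values of 0.53 to 0.66 (adjusted p up to 0.11).

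KRT15, another basal type I keratin, is described after its values were seen. In MIA PaCa-2 it went from 5.48 ± 0.17 to 4.76 ± 0.17 with sh1319 (SD, n = 2; limma adjusted p = 0.008), and with sh1209 it read 5.51 ± 0.31 (SD, n = 2). The change was -0.72, and its call was lost with median scaling (-0.54, adjusted p = 0.084) and without the first shCtrl array (-0.61, adjusted p = 0.059) or the first sh1319 array (-0.61, adjusted p = 0.068). In Capan-1, KRT15 was 0.41 and 0.48 above shCtrl on the log2 scale (limma adjusted p = 0.13 and 0.084), and with median scaling both passed (adjusted p = 0.05 and 0.023, the former just under the threshold). KRT5 and KRT14, the defining basal pair, were not detected.

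KRT10 and KRT24, type I genes on chromosome 17, both rose with sh1319 in MIA PaCa-2. KRT10, a keratin of the suprabasal epidermis also described after its values were seen, read 9.20 and 9.17 with shCtrl, 8.73 and 8.83 with sh1209, and 10.25 and 10.01 with sh1319. It rose 1.92-fold with sh1319 (log2 change 0.94, 95% interval 0.68 to 1.21, limma adjusted p = 0.00015), and the hairpins were 2.55-fold apart (limma adjusted p = 1.1e-05). With sh1209 the change was -0.41 (limma adjusted p = 0.038), a call lost with median scaling (-0.40, adjusted p = 0.28), with array weights (-0.41, adjusted p = 0.059), in a fit of MIA PaCa-2 alone (-0.41, adjusted p = 0.09) and when any 1 of the 4 arrays was left out (-0.46 to -0.36, adjusted p between 0.079 and 0.16). In Capan-1, KRT10 read 10.50 ± 0.02 with shCtrl, 10.38 ± 0.12 with sh1209 and 10.85 ± 0.05 with sh1319 (SD, n = 2). The change of 0.35 with sh1319 did not pass (limma adjusted p = 0.08), but did without background correction (adjusted p = 0.0042), with an offset of 50 (adjusted p = 0.014) and with the stricter filter (adjusted p = 0.043). The hairpins differed there by 0.47 on the log2 scale (limma adjusted p = 0.029), a call lost with median scaling (adjusted p = 0.22) and when any 1 of the 4 knockdown arrays was left out (adjusted p between 0.06 and 0.18).

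TMEM99, now KRT10-AS1 in RefSeq and overlapping KRT10, was looked up after the KRT10 values were seen. In MIA PaCa-2 its probe 3310471 read 8.79 ± 0.06 with shCtrl, 8.30 ± 0.07 with sh1209 and 9.93 ± 0.06 with sh1319 (SD, n = 2), with changes of -0.49 and 1.14 (limma adjusted p = 0.01 and 1.9e-05). Its second probe, 4760592, was detected in 5 arrays and passed in no comparison. Whether the first probe and that of KRT10 read separate transcripts was not tested.

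KRT24 was undetected with shCtrl in MIA PaCa-2 (4.43 and 4.27), and read 4.81 and 5.21 with sh1209 and 6.06 and 6.18 with sh1319. It was at least 2.66-fold above shCtrl with sh1319 (limma adjusted p = 0.00014), while with sh1209 it was at least 1.23-fold above shCtrl, which did not pass (limma adjusted p = 0.065) but passed without background correction (0.23, adjusted p = 0.048) and in a fit of MIA PaCa-2 alone (adjusted p = 0.045). The sh1319 arrays exceeded those of sh1209 by 1.11 on the log2 scale (limma adjusted p = 0.0037). In Capan-1, changes of -0.34 and 0.04 did not pass, and the lines differed in response by -1.37 ± 0.28 (SE; limma adjusted p = 0.0069).

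The promoters of KRT10 and KRT24 are shown because, of the keratins called higher with sh1319 in MIA PaCa-2, only these had a promoter sequence here. They are the 250 bases upstream of the RefSeq start on GRCh38.p14, 5′ to 3′ on the minus strand, at chr17:40822615-40822864 for KRT10 and chr17:40703753-40704002 for KRT24, with matches to TATAAA and CCAAT on either strand in capitals.
KRT10: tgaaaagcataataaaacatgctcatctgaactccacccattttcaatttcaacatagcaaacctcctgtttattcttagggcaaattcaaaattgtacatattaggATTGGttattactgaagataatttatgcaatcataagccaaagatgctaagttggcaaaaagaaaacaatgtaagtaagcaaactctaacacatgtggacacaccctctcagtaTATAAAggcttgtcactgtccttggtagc
KRT24: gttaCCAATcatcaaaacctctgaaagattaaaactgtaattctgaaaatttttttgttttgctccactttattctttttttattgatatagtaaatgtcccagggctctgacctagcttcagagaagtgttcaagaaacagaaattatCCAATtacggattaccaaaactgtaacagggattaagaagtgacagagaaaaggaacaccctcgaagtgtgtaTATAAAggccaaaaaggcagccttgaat
Both hold TATAAA close to the start, 29 bases before it in KRT10 and 28 in KRT24, a motif found in 10.7% of 35116 such windows. Both also hold CCAAT, once on the opposite strand in KRT10 and at 2 places in KRT24, a motif found in 32% of windows. Neither holds TGANTCA, the AP-1 motif (6.57% of windows), or GGGCGG, the GC box (42.6%). A match is a description of these letters only. KRT80 and KRT7 were also called higher with sh1319 in MIA PaCa-2 but had no promoter sequence here. With sh1209 in that line KRT10 was lower and KRT24 did not pass, and shared regulation of the pair was not tested.

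KRT23, a type I keratin, differed between the lines and did not pass with a FAK hairpin in either. Probe 630152 stood at 6.96 ± 0.30 with shCtrl, 6.89 ± 0.12 with sh1209 and 7.35 ± 0.17 with sh1319 (SD, n = 2), and was undetected in all MIA PaCa-2 arrays. Changes in Capan-1 were -0.07 with a 95% interval from -0.41 to 0.28 and 0.39 with one from 0.05 to 0.73 (limma adjusted p = 0.86 and 0.14), the latter passing without background correction (0.25, adjusted p = 0.047). Between the hairpins in Capan-1 the difference was -0.46 (limma adjusted p = 0.09), which passed without background correction (-0.30, adjusted p = 0.02) and with an offset of 50 (-0.37, adjusted p = 0.027).

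The sizes given for dim probes, and the bounds among them, hold for this background correction only. Without it the following values still passed, at smaller sizes. Between the lines, the log2 difference of KRT7 was then 3.33, that of KRT13 1.71, that of KRT17 0.83 and that of KRT23 probe 630152 1.2, and KRT81 and KRT86 were lower in Capan-1 by 1.74 and 1.40 on the log2 scale. In MIA PaCa-2, KRT81 changed by -1.65 (sh1209) and -1.52 (sh1319), KRT86 by -1.28 and -0.93, KRT19 by -0.54 and -0.57, and KRT80 probe 2340193 by 0.38 and 0.47. KRT13 changed there by 0.60 with sh1209, KRT24 by 0.67 with sh1319 and KRT15 by -0.24 with sh1319. In Capan-1, KRT13 changed by -1.45 and KRT17 by 0.74 with sh1209.

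Counted over probes, sh1209 changed 7 of 23 keratin probes in MIA PaCa-2 (30.4%, against 18% of all probes), 3 higher and 4 lower, and sh1319 changed 11 (47.8%, against 24.3%), 5 higher and 6 lower. In Capan-1 these counts were 3 with sh1209 (13.0%, against 16.8%), 1 higher and 2 lower, and 2 with sh1319 (8.70%, against 13.7%), 1 in each direction. Median scaling gave 2 higher and 1 lower, and 2 higher and 0 lower, in Capan-1. Among the MIA PaCa-2 calls, KRT81 entered the test only through its shCtrl arrays, and KRT80 counts with 2 probes. The shares in that line are therefore not read as an excess. The median changes of the keratin probes were 0.03 and -0.09 for MIA PaCa-2, then 0.02 and 0.04 for Capan-1, against 0.01, -0.01, -0.01 and 0.00 over all probes.

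Probes whose response differed between the lines numbered 10 (43.5%, against 14.4% of all probes), 5 in each direction, or 5 and 3 with median scaling. Of these, KRT81 and KRT86 were detected only in MIA PaCa-2 and KRT17 only in Capan-1, so they entered the test through the line where they are high. KRT7, KRT13 and KRT24 were undetected with shCtrl in MIA PaCa-2, where no fall could be measured. The share is therefore not read as a result about keratins. Between the hairpins, 7 keratin probes differed in MIA PaCa-2 (30.4%, against 22.6%), 3 higher and 4 lower with sh1209, and 3 in Capan-1 (13.0%, against 11.3%), 1 higher and 2 lower. Median scaling gave 1 higher and 3 lower in MIA PaCa-2, with 1 in each direction for Capan-1. The shCtrl arrays are shared by both hairpin comparisons of a line, so that those are not independent. KRT81, KRT86, KRT19 and both KRT80 probes passed with both hairpins in MIA PaCa-2, in the same direction with each, whereas KRT10 passed in opposite directions.

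**Figure D4:**
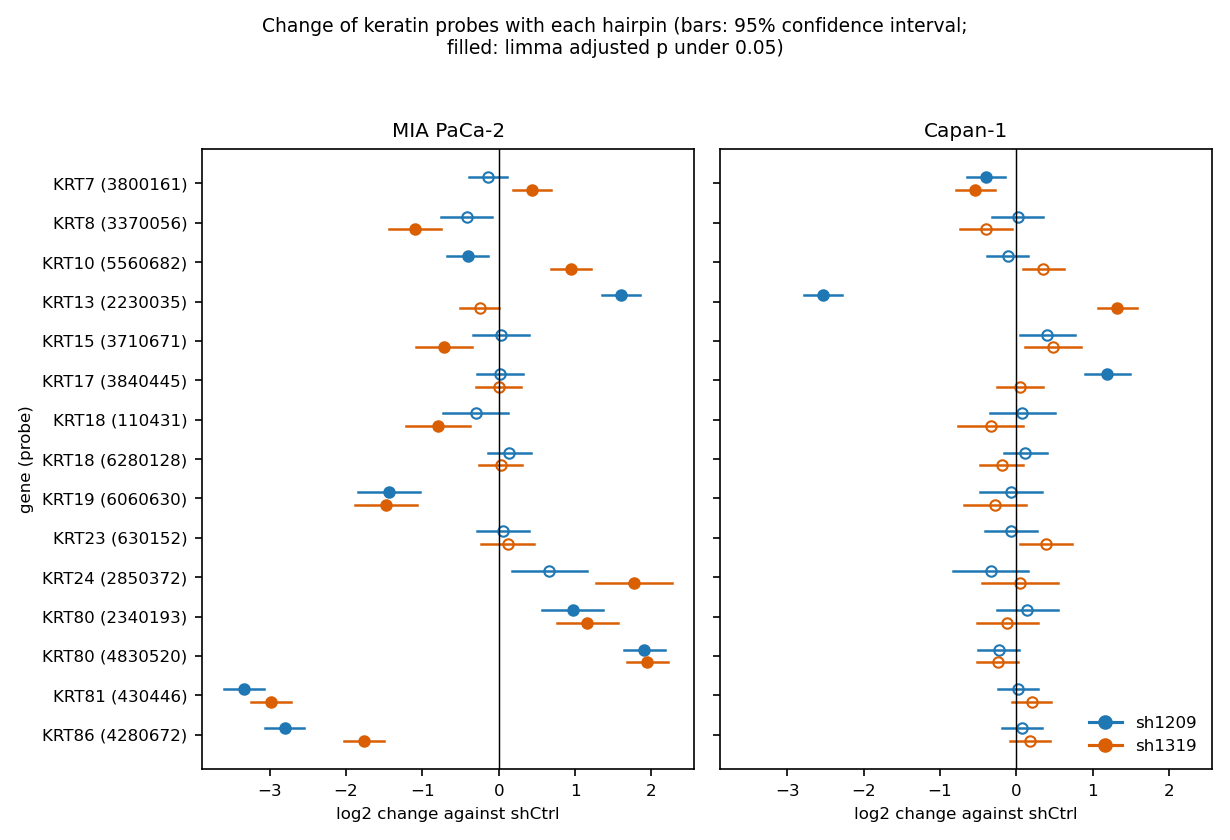
Log2 change against shCtrl of 15 keratin probes with sh1209 (blue) and sh1319 (orange) in each cell line, with 95% confidence intervals as bars and filled points where the limma adjusted p was under 0.05. In MIA PaCa-2, KRT81, KRT86 and KRT19 lie to the left and KRT80 to the right with both hairpins, and in Capan-1, KRT13 lies far to the left with sh1209 and to the right with sh1319.

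RNA of keratin linkers and junction anchors was described from a list of 23 genes, of which 20 had 35 tested probes. Besides genes of desmosomes and hemidesmosomes the list holds others, among them SFN, TRADD and HSPB1. With sh1209 in MIA PaCa-2, 7 probes were higher and 2 lower (25.7%, against 18% of all probes), and with sh1319, 8 were higher and 3 lower (31.4%, against 24.3%). COL17A1, a transmembrane collagen of the hemidesmosome, rose by 2.39 and 2.11 on the log2 scale (probe 990372, limma adjusted p = 3.2e-06 and 5.5e-06). SFN (stratifin), an epithelial adaptor protein that binds keratins, rose by 2.26 and 4.71 in MIA PaCa-2 (limma adjusted p = 3.2e-07 and 7.1e-10) and fell by 0.99 and 0.78 in Capan-1 (limma adjusted p = 0.00031 and 0.0021). ITGB4, the laminin receptor subunit of hemidesmosomes, had probes that disagreed, with 3940132 higher by 1.43 and 1.61 and 4490367 lower by 0.61 and 0.41 in MIA PaCa-2. In Capan-1, 5 probes of the list were higher and 1 lower with sh1209 (17.1%, against 16.8%), and 2 higher and 1 lower with sh1319 (8.57%, against 13.7%), and JUP, which ties filaments to desmosomal cadherins, rose by 0.69 and 0.61 (limma adjusted p = 0.0094 and 0.021).

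Of 17 epithelial regulators, 14 had 22 tested probes. TP63, the regulator of stratified epithelia, rose with every hairpin, by 0.69 and 1.42 on the log2 scale in MIA PaCa-2, and by 0.63 and 1.09 in Capan-1 (limma adjusted p between 2.7e-05 and 0.011). GRHL3, a factor of epidermal differentiation, rose in Capan-1 by 0.64 with sh1209 and 2.08 with sh1319 (probe 50168, limma adjusted p = 0.0041 and 2.9e-06). EHF, an epithelial ETS factor, fell by 1.53 with sh1209 in MIA PaCa-2 and rose by 1.09 with it in Capan-1 (limma adjusted p = 0.0002 and 0.0024). In all, 6 probes of the list were higher and 1 lower in MIA PaCa-2 with sh1209 (31.8%, against 18% of all probes), and 2 higher and 1 lower with sh1319 (13.6%, against 24.3%). In Capan-1, 4 were higher and 1 lower with sh1209 (22.7%, against 16.8%), and 5 higher and 1 lower with sh1319 (27.3%, against 13.7%).

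Cornified envelope genes had 15 tested probes, and 2 rose with sh1209 in Capan-1 (13.3%, against 16.8% of all probes), the proline-rich SPRR2A and SPRR2D, by 1.82 and 2.57 on the log2 scale (limma adjusted p = 9.2e-07 and 1.3e-06), while 1 rose with sh1319 (6.67%, against 13.7%). In that group KRT17 was higher and KRT13 lower. In MIA PaCa-2, 1 probe of this list was lower with sh1209 (6.67%, against 18%), and 1 was higher and 2 lower with sh1319 (20.0%, against 24.3%), among them the protease KLK7, lower by 0.77 and 0.88 with the hairpins. Of 9 tested probes of other intermediate filament genes, MIA PaCa-2 showed 2 higher and 1 lower with sh1209 and 3 lower with sh1319 (33.3% each, against 18% and 24.3%), and in Capan-1 none passed with sh1209 (against 16.8%) and 1 passed in each direction with sh1319 (22.2%, against 13.7%). SYNM (synemin) fell by 1.27 and 0.91 in MIA PaCa-2 (limma adjusted p = 0.0017 and 0.0088), and LMNB1, a nuclear lamin, fell by 1.55 with sh1319 (limma adjusted p = 8.8e-06). VIM, the filament protein of mesenchymal cells, did not pass in MIA PaCa-2 on either probe, with probe 7050019 changing by 0.15 and -0.02 (limma adjusted p = 0.38 and 0.94), and its probe 830593 was higher by 0.47 with sh1319 in Capan-1 (limma adjusted p = 0.036).

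Cell type markers were set beside the keratins. None of 13 tested epithelial probes outside the keratins passed with either hairpin in MIA PaCa-2 (against 18% of all probes with sh1209 and 24.3% with sh1319). The summed intensity of that list there was 964 to 980 with shCtrl, 950 to 1043 with sh1209 and 987 to 1061 with sh1319. CDH1 was detected in no MIA PaCa-2 array, and EPCAM there in both sh1209 arrays but in neither other group. In Capan-1, 6 of the 13 were higher with sh1209 (46.2%, against 16.8% of all probes) and 1 with sh1319 (7.69%, against 13.7%). Summed mesenchymal markers lay between 9466 and 12335 on MIA PaCa-2 arrays, against 757 to 1003 on Capan-1 arrays. Of 8 mesenchymal genes, however, 1 was detected in both arrays of each MIA PaCa-2 group, against 3, 2 and 3 in Capan-1 (shCtrl, sh1209, sh1319). The sums thus do not show most of these genes higher in MIA PaCa-2. In Capan-1, 1 of 7 tested mesenchymal probes was higher with sh1209 (CDH2, against 16.8% of all probes called) and 2 with sh1319 (CDH2 and VIM probe 830593, against 13.7%). Of 4 islet genes none was detected in both arrays of any group, and of 4 fibroblast and stellate cell genes, at most 1 was. Leukocyte and endothelial lists had at most 2 of 4 genes detected in both arrays of a group, and the acinar list at most 1 of 5. Of these lists, fibroblast and stellate cell genes had 2 of 3 tested probes higher with sh1209 in MIA PaCa-2 (both RGS5, against 18% of all probes called). In that line 1 of these was lower with sh1319 (against 24.3%), and LUM was higher with sh1319 in Capan-1 (against 13.7%). Both tested endothelial probes (PECAM1 and VWF) were higher with sh1209 in Capan-1 (against 16.8% of all probes called), and 1 of 4 leukocyte probes (CD68) with sh1209 in MIA PaCa-2 (against 18%). Of 2 acinar probes, CPB1 was lower with both hairpins in MIA PaCa-2 (against 18% and 24.3% called), and PRSS1 was higher with sh1209 and lower with sh1319 in Capan-1 (against 16.8% and 13.7%). Such short lists are not read as shares. The part of these shifts in the keratin values was not tested.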

How the data were processed

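Total RNA of 6 groups, 2 PDAC lines with 3 hairpins each, was read on a chip of 12 arrays, and samples were grouped by their labels. The authors deposited probe intensity on a linear scale and a detection p-value for each array, without normalization (GenomeStudio 2011.1 in the submitters' processing notes). Of 47320 rows, 92 spike-in rows were dropped after background correction with limma 3.58.1 in R 4.3.3 (nec, normexp from the detection p-values, offset 16), and log2 values were quantile-normalized. Probes called detected (p under 0.05) on 2 or more arrays were fitted on 6 group means (lmFit, eBayes, 6 residual degrees of freedom). P-values were adjusted by Benjamini-Hochberg over 24207 probes in each of 8 comparisons. The test was checked on simulated data. Replicate numbers did not pair the arrays.

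Keratins named in full were KRT7, KRT8, KRT18, KRT19 and KRT20, and those past the threshold with a log2 change of at least 1 with a hairpin or between responses, or 2 between lines. The members, the pathway lists (filament genes, keratin linkers, cornified envelope genes, epithelial regulators) and the marker lists were chosen with earlier results of these data known. Promoter sequences are RefSeq's on GRCh38.p14, where 34 of 56 members had one, 7 of them tested. Alternatives were no background correction, median scaling, an offset of 50, no filter, a stricter filter (p under 0.01 in 4 arrays), the replicate number as a block, array weights, 1 cell line alone, the methods' t-test and each array left out in turn. The number of arrays limits the precision.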

Additional observations from a re-analysis of the deposited data

Results flagged for a closer look

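The response to the FAK hairpins, taken as the mean of both against shCtrl, differed between Capan-1 and MIA PaCa-2 for 10 of 23 keratin probes by the limma interaction test (43.5%, against 14.4% of all probes). Several of these entered the test through the line where they are high, so the share is not read as a result about keratins. On the log2 scale, Capan-1 minus MIA PaCa-2, the difference was 3.27 for KRT81, 2.41 for KRT86, 1.28 for KRT19, 0.79 for KRT15 and 0.61 for KRT17. It was -2.17 for KRT80 probe 4830520, -1.05 for KRT80 probe 2340193, -1.37 for KRT24, -1.28 for KRT13 and -0.61 for KRT7. Adjusted p-values ran from 1e-07 for KRT81 to 0.03 for KRT17. PTK2 probe 450253 also passed this test (1.17, limma adjusted p = 0.00021), and probe 2680750 did not. Cell line and depth of knockdown thus cannot be told apart. KRT81 and KRT86 were undetected in all Capan-1 arrays and KRT17 in all MIA PaCa-2 arrays, and KRT7, KRT13 and KRT24 in the shCtrl arrays of MIA PaCa-2, so that there no fall could have been measured. KRT24 was detected in 1, 0 and 2 arrays (shCtrl, sh1209, sh1319) of Capan-1. For KRT13 the value averages a fall with sh1209 and a rise with sh1319 in Capan-1. The KRT17 difference did not pass in several fits with 1 array left out (0.53 to 0.66). That of KRT80 probe 2340193 did not pass with median scaling (-0.79, limma adjusted p = 0.099), nor without the first Capan-1 shCtrl array (-0.94). The KRT7 difference did not pass with median scaling (-0.39, adjusted p = 0.45), nor without the second shCtrl array of MIA PaCa-2 (adjusted p = 0.051) or of Capan-1 (adjusted p = 0.056). That of KRT15 did not pass without the first MIA PaCa-2 shCtrl array (adjusted p = 0.094), the second Capan-1 shCtrl array (adjusted p = 0.12) or the second Capan-1 sh1209 array (adjusted p = 0.055).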

How the results depend on the processing

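No named keratin value that passed changed sign. Of 54 such values, 39 kept their call in every alternative other than the methods' t-test, of which 9, all differences between the lines, also kept it in that test and 6, differences in response, were not put through it. Median scaling ended 12 calls. The methods' t-test, with 2 arrays a group, left 0 keratin probes after adjustment for sh1209 and sh1319 in MIA PaCa-2, for both in Capan-1 and for the hairpins compared in each line, with 9, 11, 3, 5, 8 and 4 at an unadjusted p under 0.05 (limma 9, 11, 4, 6, 9 and 6), and 9 between the lines. For sh1319 in Capan-1, the count of 2 became 6 without background correction and 4 with an offset of 50. The hairpin comparison in MIA PaCa-2 went from 7 to 4 with median scaling, and that in Capan-1 from 3 to 5 without background correction and with an offset of 50. Leaving out 1 array gave 11 to 13 calls between the lines, 6 to 7 for sh1209 and 9 to 10 for sh1319 in MIA PaCa-2, 2 to 3 and 1 to 2 in Capan-1 (1 without the second shCtrl or first sh1319 array), 5 to 7 and 2 to 3 between hairpins, and 7 to 10 for the difference in response. Where this left 1 array in a group, it was assumed to vary like the others. The replicate number as a block changed no count (13, 7, 11, 3, 2, 7, 3 and 10) and no named call. Deviations of same-numbered arrays correlated between -0.06 and 0.16 over 15 pairs of groups, with 1 above 0.1, so the numbers were not taken as pairs. The cause of these shifts was not tested. With 2 arrays a group and many keratins near the detection floor, small changes of dim probes were not detectable.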
